A study of Homo sapiens with 8 samples.

Results

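The question was where the RNA response to an shRNA labelled shp300 ran in opposite directions in WM983B and SK-Mel5, established lines from human melanoma. The set described here holds the array features that lay above the array median in all 4 groups and whose change ran up in one line and down in the other. It counted 3387 of the 10342 features that were above the median in every group, and of 23786 features in all. Of these 3387, 1532 had a positive estimate in WM983B and a negative one in SK-Mel5, and 1855 had the reverse. The estimates of the 2 lines chose the set, so the opposite signs are a description, and the test bears on the size of the difference only.

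Cells of both lines had been transduced with pLKO1-based lentivirus carrying either a scrambled control shRNA or shp300, which is directed at EP300, the gene of the acetyltransferase p300. Puromycin at 1.5 μg/mL was applied from 48 h after transduction to all 4 groups, in the presence of which only transduced cells grow. Each of the 4 groups had 2 Affymetrix Human Gene 2.0 ST arrays, 8 in all. Nothing in the labels tells whether the 2 arrays of a group represent separate cultures, so the p-values reflect the spread between these samples only, and that spread may be technical. The labels name 1 shRNA against EP300, so a change cannot be told apart from an effect of that hairpin on other RNAs.

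p300 transfers acetyl groups to histones and transcription factors and is recruited to enhancers and promoters by many factors, among them MITF, the regulator of the pigment cell lineage. CBP, encoded by CREBBP, is its close relative and shares many of its partners and target sites. Melanoma lines are known to range from pigmented cells with high MITF to dedifferentiated cells with high receptor kinase and YAP activity.

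EP300 measured 7.10 and 7.22 with scrambled shRNA and 6.92 and 7.26 with shp300 in WM983B, and 7.19 and 6.90 against 5.97 and 6.10 in SK-Mel5. The arrays of the 2 WM983B groups overlapped, whereas both shp300 arrays of SK-Mel5 lay below both scrambled ones. The EP300 change was -0.07 ± 0.16 (adjusted p = 0.832) in WM983B and -1.01 ± 0.16 (adjusted p = 0.00377) in SK-Mel5, where ± gives the standard error on the log2 scale and the adjusted p is that of limma over all features. For this reason the WM983B results are those of the arrays labelled shp300, and every opposite change set out here compares a line in which EP300 RNA fell with one in which a fall was not measured. The difference of the EP300 changes was 0.95 ± 0.22 (adjusted p = 0.0357). EP300 lost its difference call without WM983B scrambled 1 or 2 or shp300 2 or SK-Mel5 scrambled 1 or shp300 1 or 2 (adjusted p from 0.0672 to 0.119). CREBBP, the gene of the related acetyltransferase CBP, changed by 0.69 ± 0.14 (adjusted p = 0.00846) and 0.92 ± 0.14 (adjusted p = 0.00328), rises in both lines. Where 2 changes of a gene are given without a line, that of WM983B comes first. Rose and fell are used of called changes, and ran up or ran down of the sign of an estimate. CREBBP lost its WM983B call without WM983B scrambled 2 (adjusted p = 0.0573).

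Arrays of 1 group correlated at r between 0.992 and 0.995. Array medians were 4.26 to 4.28 in WM983B and 2.96 to 3.01 in SK-Mel5, so levels are not on a common scale across lines, and only changes within a line are set against each other. All 7 measured melanocyte lineage markers lay above the array median in every group. Their mean level above the array median was 6.19 to 6.20 in scrambled and 4.75 to 4.98 in shp300 arrays of WM983B, and 6.40 in scrambled and 6.22 to 6.26 in shp300 arrays of SK-Mel5. Of the markers of other cells, 0 of 7 keratinocyte, 0 of 8 leukocyte and 0 of 8 endothelial genes lay above the median in all groups. The fibroblast list had 4 of 9 above it, with a mean of 0.33 to 0.36 and 0.55 to 0.60 in WM983B and of 0.32 to 0.33 and 0.45 to 0.46 in SK-Mel5 (scrambled and shp300). The list for HEK293T, a line often used to make lentivirus, had 1 of 7. Its mean was -0.87 to -0.78 in scrambled and -0.86 to -0.73 in shp300 arrays of WM983B. In SK-Mel5 the HEK293T mean was above the array median, at 0.56 to 0.64 and 0.61 to 0.63. These means overlapped between scrambled and shp300 arrays in both lines. The melanocyte and fibroblast means did not overlap between scrambled and shp300 arrays in either line. The leukocyte mean, below the array median throughout, was -1.51 to -1.50 in scrambled and -1.31 in shp300 arrays of WM983B, and overlapped in SK-Mel5. The part of any marker list in the results was not tested.

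Opposite estimates were common and opposite called changes were rare. Over all 23786 features, 40.1% had estimates of opposite sign, and 32.7% of the features above the median did. A feature was called where its adjusted p was under 0.05, which 2250 features (9.46%) reached for the difference between lines and 15.2% of those above the median. Among the 3387 opposed features, 951 were called in the difference (28.1%), against 622 of the 6955 other features above the median (8.94%). An opposed feature adds its 2 changes in the difference, so that contrast of shares follows in part from the rule. Of the 951, 454 ran up in WM983B (4.39% of the features above the median) and 497 ran up in SK-Mel5 (4.81%). Over all features and regardless of sign within a line, the difference was higher in WM983B for 5% and lower for 4.46%.

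Within single lines, 5352 features (22.5%) were called in WM983B, 10.9% higher and 11.6% lower, and 3894 (16.4%) in SK-Mel5, 7.57% higher and 8.8% lower. Of the features above the median, 1785 were called in both lines, 1618 in the same direction and 167 in opposite directions, which is 9.36% of the 1785 and 1.61% of the 10342 (0.866% over all features). The 167 split into 85 that rose in WM983B and fell in SK-Mel5 (0.822% of the features above the median) and 82 that did the reverse (0.793%). All 167 (100%) had arrays that did not overlap between shp300 and scrambled in either line. This held for 76.2% of the 951, for 42.5% of the 3387, and for 13.9% of the features above the median and 9.75% of all features when opposition was counted with it. The size of the difference of the 167 ran from 0.75 to 3.55 with a median of 1.28 on the log2 scale. In 9 of them the change was at least 2-fold in both lines. The other 784 of the 951 were called in WM983B alone (421), SK-Mel5 alone (325) or neither line on its own (38).

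**Figure D1:**
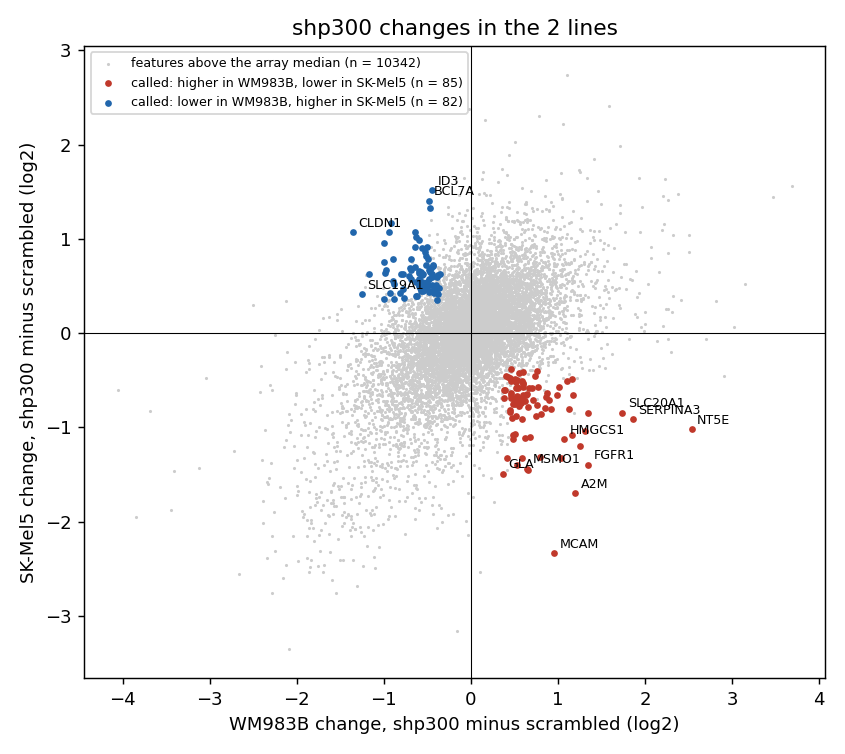
Change of each of the 10342 features above the array median in WM983B (x axis) against SK-Mel5 (y axis), both shp300 minus scrambled on the log2 scale. The 85 red features rose in WM983B and fell in SK-Mel5, the 82 blue features did the reverse, and each coloured point was called in both lines.

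The count of 167 was lower whichever array was left out, on the assumption that a lone array varies as the other groups do. The lowest count came without the 2nd scrambled array of WM983B and the highest of these without the 1st shp300 array of SK-Mel5. The count of 951 was between 350 and 765, with the extremes at the same arrays. A core of 25 features kept opposite calls in both lines whichever array was left out, 19 that rose in WM983B and 6 that fell there, and 22 of them carried a gene symbol. The 18 named risers were NT5E, MCAM, A2M, SERPINA3, FGFR1, SLC20A1, SEMA7A, SEL1L3, BCL6, HMGCS1, CTSL, TMEM41B, EIF2AK3, DOCK4, DUSP6, CD59, SQLE and PPTC7. The 4 named genes that fell in WM983B were PRKD3, ARHGDIA, TMEM229B and CLDN1.

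At the edges of the rule, SLC35F1 was kept with a lowest group mean 0.016 above the array median (changes of -1.10 and 0.27 in WM983B and SK-Mel5). NGFR, the nerve growth factor receptor of dedifferentiated melanoma, was left out with a lowest group mean 0.0071 below it, at changes of 2.19 and -0.30. PDHX was kept with a WM983B change of 0.001 beside -0.80 in SK-Mel5, and OAF was left out with -0.0044 beside -0.80.

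NT5E, MCAM and A2M are among the genes that rose in WM983B and fell in SK-Mel5. NT5E, which encodes CD73, the ecto-enzyme that makes adenosine from AMP, measured 7.13 and 7.11 with scrambled shRNA and 9.62 and 9.69 with shp300 in WM983B, and 5.59 and 5.56 against 4.79 and 4.33 in SK-Mel5. Both shp300 arrays were the higher pair in WM983B and the lower pair in SK-Mel5. NT5E rose by 2.54 ± 0.15 (adjusted p = 5.37e-05) and fell by 1.02 ± 0.15 (adjusted p = 0.00341), and the difference of 3.55 ± 0.22 (adjusted p = 0.000362) was the largest among the 167. MCAM, the melanoma cell adhesion molecule CD146, measured 9.45 and 9.45 with scrambled shRNA and 10.41 and 10.40 with shp300 in WM983B, and 6.42 and 6.30 against 4.25 and 3.80 in SK-Mel5. The scrambled and shp300 pairs did not overlap in either line, and the fall in SK-Mel5 was the larger change. MCAM rose by 0.96 ± 0.15 (adjusted p = 0.00321) and fell by 2.34 ± 0.15 (adjusted p = 0.000106), a difference of 3.29 ± 0.22 (adjusted p = 0.000511).

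A2M, the secreted protease inhibitor alpha-2-macroglobulin, measured 4.39 and 5.00 with scrambled shRNA and 6.11 and 5.69 with shp300 in WM983B, and 9.59 and 9.68 against 7.98 and 7.90 in SK-Mel5. Its 2 scrambled WM983B arrays stood apart from each other, yet both lay below the shp300 pair. The A2M changes were 1.20 ± 0.21 (adjusted p = 0.00508) and -1.70 ± 0.21 (adjusted p = 0.00148). SERPINA3, a secreted inhibitor of serine proteases, rose by 1.86 ± 0.14 (adjusted p = 0.000105) and fell by 0.91 ± 0.14 (adjusted p = 0.00355). SLC20A1, a sodium-dependent phosphate importer, measured 8.70 and 8.72 with scrambled shRNA and 10.46 and 10.44 with shp300 in WM983B, and 6.67 and 6.81 against 6.05 and 5.74 in SK-Mel5. The pairs did not overlap in either line, and the difference was 2.59 ± 0.18 (adjusted p = 0.000575). SEMA7A, a membrane-anchored semaphorin, rose by 1.03 and fell by 1.33, and SEL1L3 rose by 1.31 and fell by 1.04. BCL6, a transcriptional repressor, rose by 1.17 ± 0.14 (adjusted p = 0.000795) and fell by 1.08 ± 0.14 (adjusted p = 0.00161). TSPAN13, a tetraspanin, rose by 1.35 and fell by 0.85. TSPAN13 lost its SK-Mel5 call without SK-Mel5 scrambled 1 or 2 or shp300 2 (adjusted p from 0.0519 to 0.0609).

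**Figure D2:**
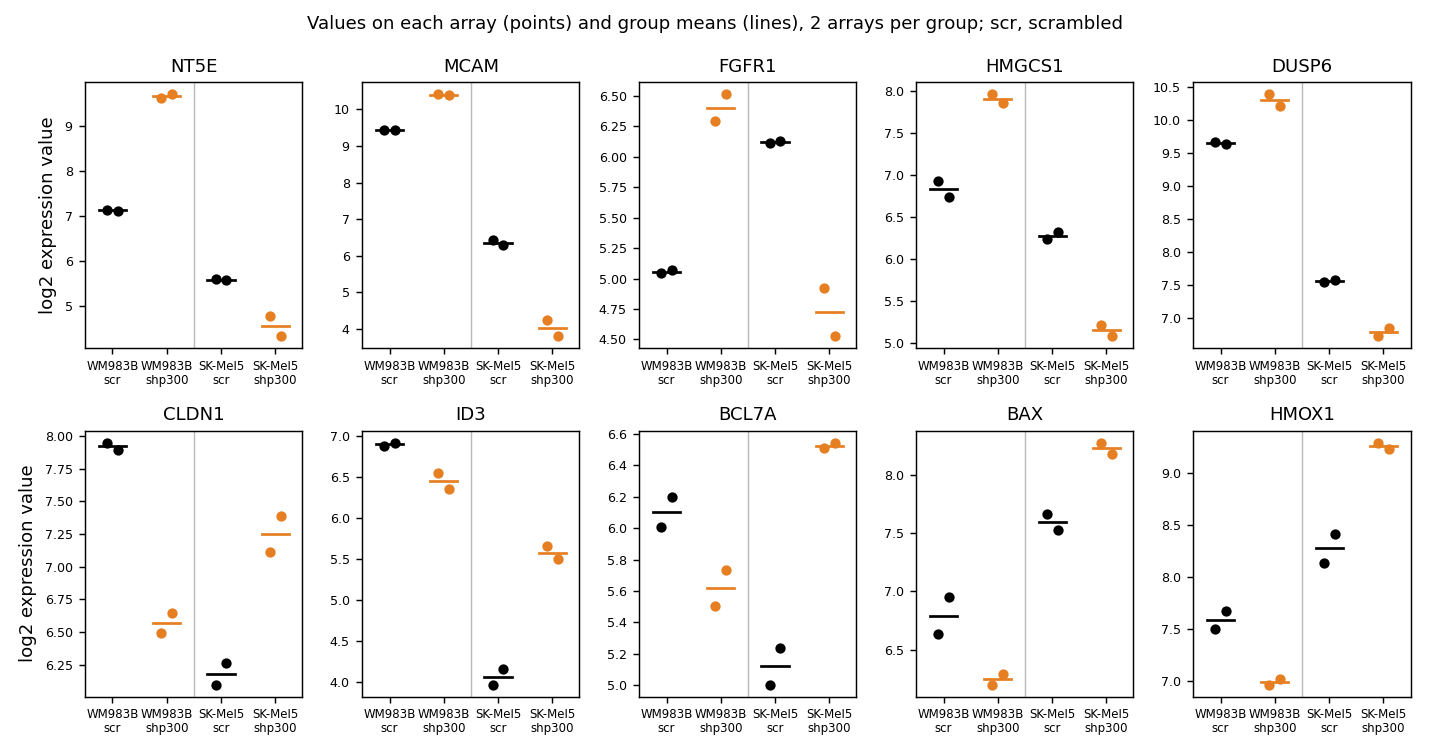
Log2 expression values of 10 opposed genes on each array (points, 2 per group) with group means (lines), scrambled in black and shp300 in orange, each panel with its own y axis. The first 5 genes rise in WM983B and fall in SK-Mel5, the last 5 do the reverse, and the pairs do not overlap in any panel.

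Of the genes that fell in WM983B and rose in SK-Mel5, CLDN1, which encodes the tight junction protein claudin 1, measured 7.95 and 7.89 with scrambled shRNA and 6.49 and 6.64 with shp300 in WM983B, and 6.10 and 6.26 against 7.12 and 7.39 in SK-Mel5. The pairs did not overlap in either line. CLDN1 fell by 1.35 ± 0.13 (adjusted p = 0.000338) and rose by 1.07 ± 0.13 (adjusted p = 0.00145), a difference of -2.43 ± 0.19 (adjusted p = 0.000701), and it was the 1 gene of this orientation with at least 2-fold change in both lines. ID3, an inhibitor of DNA binding that is a target of BMP signals, measured 6.88 and 6.92 with scrambled shRNA and 6.56 and 6.35 with shp300 in WM983B, and 3.97 and 4.15 against 5.66 and 5.50 in SK-Mel5. The rise in SK-Mel5 was 1.52 ± 0.13 (adjusted p = 0.000243) and the fall in WM983B was 0.45 ± 0.13 (adjusted p = 0.0392). ID3 lost its WM983B call without any 1 of the 4 WM983B arrays or SK-Mel5 scrambled 1 or 2 (adjusted p from 0.0505 to 0.181). BCL7A, a subunit of SWI/SNF chromatin remodellers, fell by 0.48 and rose by 1.41, a difference of -1.89 ± 0.19 (adjusted p = 0.00224). BCL7A lost its WM983B call without any 1 of the 4 WM983B arrays or SK-Mel5 shp300 1 or 2 (adjusted p from 0.0517 to 0.204).

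SLC5A4, a member of the sodium glucose transporter family, fell by 1.17 ± 0.10 (adjusted p = 0.000224) and rose by 0.62 ± 0.10 (adjusted p = 0.00556). SLC19A1, the reduced folate carrier, measured 5.65 and 5.63 with scrambled shRNA and 4.38 and 4.41 with shp300 in WM983B, and 4.45 and 4.52 against 4.92 and 4.88 in SK-Mel5. The pairs did not overlap, and most of the difference of -1.67 ± 0.14 (adjusted p = 0.00111) lay in WM983B. SLC19A1 lost its SK-Mel5 call without WM983B scrambled 1 or 2 or any 1 of the 4 SK-Mel5 arrays (adjusted p from 0.0501 to 0.139). TNFRSF14, the receptor HVEM, fell by 0.97 and rose by 0.67. TNFRSF14 lost its SK-Mel5 call without WM983B scrambled 1 or 2 or SK-Mel5 scrambled 1 or 2 or shp300 2 (adjusted p from 0.0514 to 0.13). TMEM229B changed by -0.91 and 1.17. SPOCK1, a secreted proteoglycan, changed by -0.94 and 1.07. SPOCK1 lost its WM983B call without WM983B scrambled 1 or 2 or shp300 1 (adjusted p from 0.0523 to 0.089) and its SK-Mel5 call without SK-Mel5 shp300 1 (adjusted p = 0.0555). CPN1, a subunit of carboxypeptidase N, changed by -0.99 and 0.76, and AHNAK2 by -0.89 and 0.78. CPN1 lost its SK-Mel5 call without SK-Mel5 scrambled 1 (adjusted p = 0.0688). AHNAK2 lost its SK-Mel5 call without SK-Mel5 scrambled 2 or shp300 2 (adjusted p from 0.0674 to 0.0788). CILK1, a kinase of primary cilia, changed by -0.46 and 1.32, and NUDT19, in mouse a coenzyme A hydrolase of kidney peroxisomes, by -0.64 and 1.07. CILK1 lost its WM983B call without WM983B scrambled 1 or 2 or shp300 1 (adjusted p from 0.0644 to 0.1). NUDT19 lost its WM983B call without WM983B scrambled 1 or 2 or shp300 1 (adjusted p from 0.07 to 0.101).

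Genes of cholesterol and fatty acid synthesis were opposed in 1 direction only. All 22 measured genes of the list lay above the median, 9 were opposed (40.9%, beside 32.7% of all features above the median), and all 9 ran up in WM983B and down in SK-Mel5, although the WM983B estimate of SREBF1 turned to -0.0037 with arrays centred on their medians. The difference was called for 9 of the 22, all in that direction, and 6 of those 9 were opposed genes, beside 15.2% of all features above the median called in either direction. SK-Mel5 carried most of it, with 12 of 22 genes falling and 0 rising (8.8% and 7.57% of all features), whereas in WM983B 3 rose and 2 fell (10.9% and 11.6%). The median difference of the list was 0.41, beside -0.02 over all features above the median, with medians of 0.00 in WM983B and -0.56 in SK-Mel5. With 1 array left out, 5 or 6 opposed members were called. These genes are known to be controlled together by the SREBP factors, which often act with NF-Y, a factor that binds CCAAT boxes.

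The 300-base promoters of 2 of these genes are shown because they head the list and hold CCAAT boxes, and those of SLC20A1 and BAX because they hold CACGTG, the E-box that MITF and MYC family factors can bind, and stand for both orientations. Each runs 5′ to 3′ in the sense of the gene, from 250 bases before to 50 after its RefSeq start (GRCh38.p14). Capitals mark CCAAT, its reverse complement ATTGG, or CACGTG, which reads the same on both strands.
HMGCS1, chr5:43313363-43313662, minus strand: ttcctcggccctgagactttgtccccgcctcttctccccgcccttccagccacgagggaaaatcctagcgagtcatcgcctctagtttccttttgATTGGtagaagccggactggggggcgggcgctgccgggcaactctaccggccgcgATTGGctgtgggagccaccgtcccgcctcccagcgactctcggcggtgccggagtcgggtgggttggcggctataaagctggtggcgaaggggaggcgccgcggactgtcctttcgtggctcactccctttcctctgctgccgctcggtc
MSMO1, chr4:165327419-165327718, plus strand: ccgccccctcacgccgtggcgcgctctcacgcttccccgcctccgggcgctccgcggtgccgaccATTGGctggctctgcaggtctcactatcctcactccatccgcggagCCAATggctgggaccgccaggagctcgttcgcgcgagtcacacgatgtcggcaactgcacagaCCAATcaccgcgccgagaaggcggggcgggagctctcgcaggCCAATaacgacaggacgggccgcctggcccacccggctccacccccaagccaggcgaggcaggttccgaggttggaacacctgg
SLC20A1, chr2:112645689-112645988, plus strand: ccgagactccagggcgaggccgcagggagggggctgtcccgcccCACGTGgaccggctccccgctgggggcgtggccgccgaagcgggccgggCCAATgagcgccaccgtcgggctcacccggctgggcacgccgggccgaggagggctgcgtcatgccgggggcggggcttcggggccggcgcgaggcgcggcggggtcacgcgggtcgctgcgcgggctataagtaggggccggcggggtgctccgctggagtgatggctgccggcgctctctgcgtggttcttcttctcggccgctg
BAX, chr19:48954625-48954924, plus strand: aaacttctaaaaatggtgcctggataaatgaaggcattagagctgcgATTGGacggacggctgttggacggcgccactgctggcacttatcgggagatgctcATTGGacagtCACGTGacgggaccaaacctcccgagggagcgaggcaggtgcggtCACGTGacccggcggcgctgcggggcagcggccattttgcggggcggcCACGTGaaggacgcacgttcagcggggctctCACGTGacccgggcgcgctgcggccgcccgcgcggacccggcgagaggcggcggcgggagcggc
CCAAT was found on either strand in 31 of the 68 promoters of genes that rose in WM983B and fell in SK-Mel5 (45.6%), and in 16 of 65 of the reverse orientation (24.6%), beside 37.4% of the promoters of features above the median and 35.7% of all. CACGTG was found in 11.8% and 23.1%, beside 11% and 7.43%. The motifs TGANTCA (8.82% and 7.69%, beside 4.08% of those above the median), TGACGTCA (1.47% and 7.69%, beside 3.67%) and CATGTG (4.41% and 9.23%, beside 6.3%) were searched in the same way. A CACGTG match does not overlap a CCAAT or ATTGG match, and these shares carry no test.

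HMGCS1, the synthase at the entry of the pathway, measured 6.94 and 6.74 with scrambled shRNA and 7.96 and 7.86 with shp300 in WM983B, and 6.24 and 6.32 against 5.22 and 5.09 in SK-Mel5. The pairs did not overlap in either line and the 2 changes were of like size. HMGCS1 rose by 1.08 ± 0.12 (adjusted p = 0.00061) and fell by 1.13 ± 0.12 (adjusted p = 0.000747), a difference of 2.20 ± 0.17 (adjusted p = 0.000699). MSMO1, a methylsterol oxidase of the late pathway, measured 9.07 and 8.90 with scrambled shRNA and 9.73 and 9.53 with shp300 in WM983B, and 8.44 and 8.70 against 7.06 and 7.20 in SK-Mel5. It rose by 0.65 ± 0.14 (adjusted p = 0.0123) and fell by 1.44 ± 0.14 (adjusted p = 0.000476), without overlap. MSMO1 lost its WM983B call without WM983B scrambled 2 or shp300 1 (adjusted p from 0.0759 to 0.0882). SQLE, squalene epoxidase, measured 9.02 and 9.02 with scrambled shRNA and 9.64 and 9.56 with shp300 in WM983B, and 7.30 and 7.42 against 6.62 and 6.61 in SK-Mel5. It rose by 0.58 ± 0.11 (adjusted p = 0.00602) and fell by 0.74 ± 0.11 (adjusted p = 0.00269), and both calls were kept without each array in turn. INSIG1, the sterol-regulated brake on SREBP, had a difference of 1.53 (adjusted p = 0.00348), with changes of 0.42 and -1.10. ELOVL6, a fatty acid elongase, changed by 0.36 and -1.14, and DHCR7, the last reductase, by 0.10 and -0.87. DHCR7 lost its difference call without WM983B scrambled 1 or shp300 1 or SK-Mel5 scrambled 2 (adjusted p from 0.0573 to 0.0704). Of the factors themselves, SREBF2 differed by 0.22 (adjusted p = 0.523) and SREBF1 differed by 0.34 (adjusted p = 0.238).

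**Figure D3:**
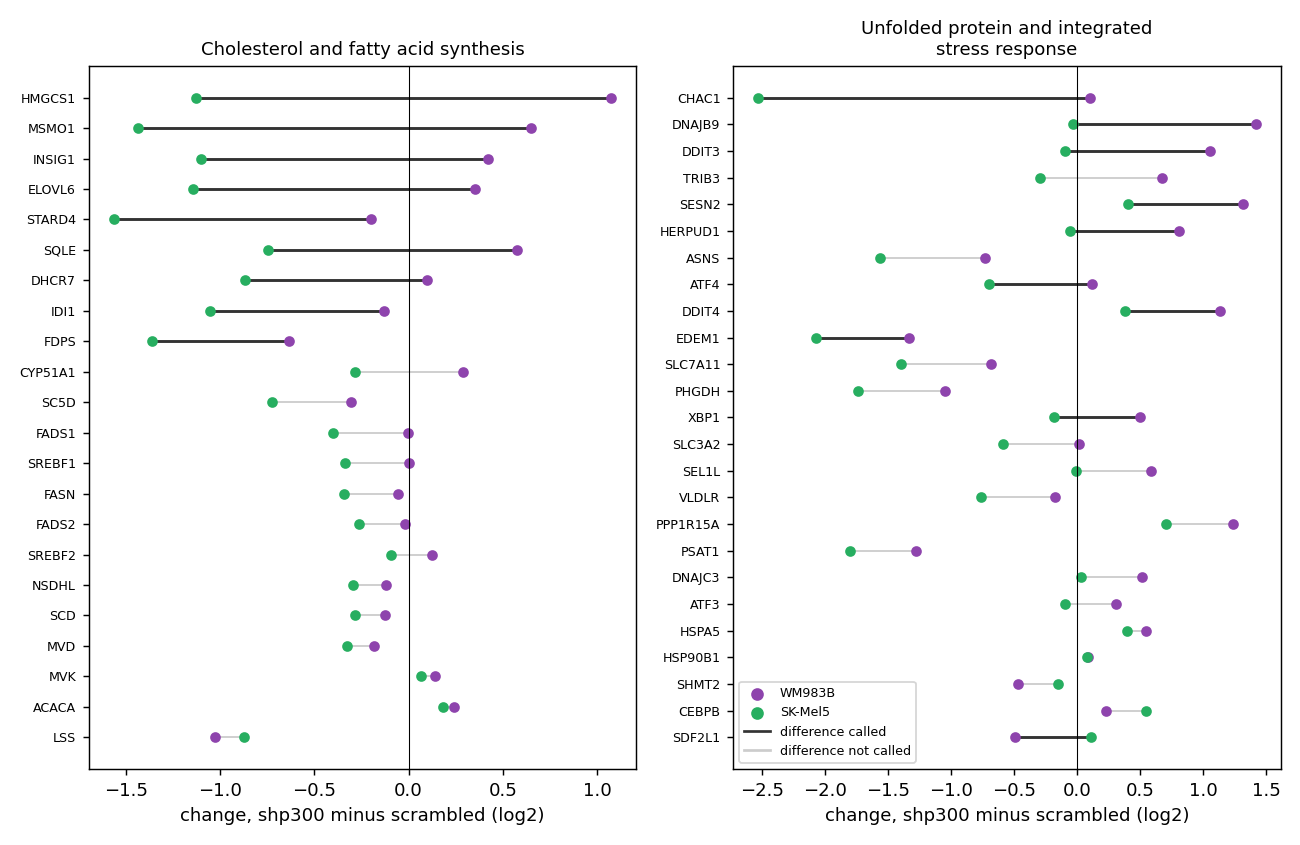
Change of each measured gene in WM983B (purple) and SK-Mel5 (green), shp300 minus scrambled on the log2 scale, for the cholesterol and fatty acid list (left) and the unfolded protein and integrated stress response list (right), ordered by the difference. Dark bars join genes whose difference was called, 9 on the left and 10 on the right, and HMGCS1 and MSMO1 head the left panel.

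The unfolded protein response adjusts the folding capacity of the endoplasmic reticulum, and the integrated stress response acts through ATF4. Of the 24 genes of both responses above the median, 10 were opposed (41.7%, beside 32.7% of all features above the median). Of those 10, 7 were called in the difference, beside 28.1% of all opposed features, 6 running up in WM983B and 1 in SK-Mel5. The 25 measured genes had a median difference of 0.68, beside 0.0072 over all features, with 9 called higher and 1 lower (5% and 4.46% of all features). With 1 array left out, 2 to 6 opposed members were called. CHAC1, a glutathione-degrading target of ATF4, measured 8.50 and 8.63 with scrambled shRNA and 8.68 and 8.66 with shp300 in WM983B, and 8.97 and 7.98 against 5.94 and 5.94 in SK-Mel5. The 2 scrambled SK-Mel5 arrays stood apart from each other, and both lay above the shp300 pair. CHAC1 fell by 2.53 ± 0.27 (adjusted p = 0.000747) in SK-Mel5, and its WM983B change was 0.11 ± 0.27 (adjusted p = 0.849). DNAJB9, a chaperone of the reticulum, rose by 1.42 ± 0.14 (adjusted p = 0.000354) in WM983B, and its SK-Mel5 change was -0.03 with overlapping arrays. DDIT3, the death-linked factor CHOP, rose by 1.06 ± 0.14 (adjusted p = 0.00133) in WM983B beside -0.09 in SK-Mel5. DDIT3 lost its difference call without WM983B scrambled 2 or SK-Mel5 scrambled 1 (adjusted p from 0.0516 to 0.0591). None of the 10 opposed genes of the list was called in both lines, beside 167 of all 3387 opposed features. At so low a share, none among 10 does not set the list apart. EIF2AK3, a kinase of these responses that the list does not hold, was called in both lines, with changes of 0.92 and -0.80.

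Of 26 measured integrin and adhesion genes, 19 rose and 3 fell in WM983B (10.9% and 11.6% of all features) and 8 rose and 4 fell in SK-Mel5 (7.57% and 8.8%). The difference was called higher in WM983B for 13 and lower for 2, beside 5% and 4.46% of all features. Of the 21 above the median, 9 were opposed (42.9%, beside 32.7% of all features above it) and 7 of those were called in the difference (28.1% of all opposed features), 6 up in WM983B, a count of 4 to 5 with 1 array left out. CDH19, a cadherin of Schwann cell precursors, measured 6.35 and 6.14 with scrambled shRNA and 9.10 and 9.20 with shp300 in WM983B, and 5.96 and 5.90 against 5.74 and 5.22 in SK-Mel5. The WM983B pairs lay far apart, and in SK-Mel5 both shp300 arrays were lower. CDH19 rose by 2.90 ± 0.17 (adjusted p = 5.08e-05) in WM983B, its SK-Mel5 change was -0.45 ± 0.17 (adjusted p = 0.13), and the difference was 3.35 ± 0.24 (adjusted p = 0.000602). CD82, a tetraspanin described as a suppressor of metastasis, rose by 1.17 ± 0.15 (adjusted p = 0.00102) and fell by 0.66 ± 0.15 (adjusted p = 0.0188). CD82 lost its SK-Mel5 call without SK-Mel5 scrambled 1 or shp300 2 (adjusted p from 0.0849 to 0.118). ALCAM, an adhesion molecule of the immunoglobulin family, changed by 1.35 and -0.06, a rise in WM983B and a difference of 1.41 ± 0.17 (adjusted p = 0.00352).

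Among ligands, VEGFA, the endothelial growth factor, measured 6.96 and 7.08 with scrambled shRNA and 7.90 and 8.11 with shp300 in WM983B, and 4.98 and 5.08 against 4.34 and 4.41 in SK-Mel5. The pairs did not overlap in either line. VEGFA rose by 0.98 ± 0.12 (adjusted p = 0.000887) and fell by 0.66 ± 0.12 (adjusted p = 0.00803). VEGFA lost its SK-Mel5 call without SK-Mel5 scrambled 2 (adjusted p = 0.0559). SEMA3C, a secreted semaphorin, rose by 2.30 ± 0.12 (adjusted p = 3.49e-05) in WM983B, with -0.19 ± 0.12 (adjusted p = 0.358) in SK-Mel5. Among receptors, FGFR1 measured 5.04 and 5.07 with scrambled shRNA and 6.29 and 6.51 with shp300 in WM983B, and 6.11 and 6.12 against 4.92 and 4.53 in SK-Mel5. It rose by 1.35 ± 0.15 (adjusted p = 0.000611) and fell by 1.40 ± 0.15 (adjusted p = 0.000776), with like sizes in both lines, and kept both calls without each array in turn. INSR, the insulin receptor, changed by 0.40 and -0.30, and EPHB4, an ephrin receptor, ran the other way at -0.30 and 0.42. In all, 7 of 12 receptor kinase and ligand genes above the median were opposed (58.3%, beside 32.7% of all features above it) and 5 were called in the difference as well, beside 9.2% of all features above the median, or 3 to 4 with 1 array left out. INSR lost its WM983B call without any 1 of the 4 WM983B arrays or SK-Mel5 scrambled 1 or 2 (adjusted p from 0.0539 to 0.168) and its difference call without any 1 of the 4 WM983B arrays or SK-Mel5 scrambled 1 or 2 or shp300 2 (adjusted p from 0.0628 to 0.103). EPHB4 lost its SK-Mel5 call without WM983B scrambled 1 or 2 or any 1 of the 4 SK-Mel5 arrays (adjusted p from 0.0547 to 0.163) and its difference call without any 1 of the 4 WM983B arrays or any 1 of the 4 SK-Mel5 arrays (adjusted p from 0.0507 to 0.0853).

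Downstream of such receptors, DUSP6, the phosphatase that is both a product and a brake of ERK signalling, measured 9.66 and 9.63 with scrambled shRNA and 10.39 and 10.21 with shp300 in WM983B, and 7.55 and 7.58 against 6.72 and 6.84 in SK-Mel5. The pairs did not overlap, and the changes were 0.65 ± 0.11 (adjusted p = 0.00463) and -0.78 ± 0.11 (adjusted p = 0.00288). CCND1, which encodes cyclin D1, rose by 1.50 ± 0.10 (adjusted p = 7.42e-05) in WM983B, and its SK-Mel5 change was -0.16 ± 0.10 (adjusted p = 0.366). Of the 18 ERK output genes above the median, 3 were opposed (16.7%, below the 32.7% of all features above it), all running up in WM983B. Of the 20 measured, 13 rose in WM983B, beside 10.9% of all features, while 5 rose and 5 fell in SK-Mel5 (7.57% and 8.8% of all features).

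YAP1, the co-activator that is held in check by the Hippo kinases, measured 6.28 and 6.37 with scrambled shRNA and 6.76 and 6.82 with shp300 in WM983B, and 5.77 and 5.87 against 5.16 and 5.12 in SK-Mel5. It rose by 0.46 ± 0.11 (adjusted p = 0.0158) and fell by 0.69 ± 0.11 (adjusted p = 0.00389), without overlap. YAP1 lost its WM983B call without any 1 of the 4 WM983B arrays (adjusted p from 0.0509 to 0.0983). CCN2, a target of YAP, rose by 2.70 ± 0.13 (adjusted p = 2.86e-05) in WM983B, and its SK-Mel5 change was -0.07 ± 0.13 (adjusted p = 0.825). AMOTL1, an angiomotin, changed by 1.11 and -0.05. AMOTL1 lost its difference call without WM983B scrambled 1 or 2 or shp300 2 or SK-Mel5 scrambled 1 or 2 or shp300 2 (adjusted p from 0.0591 to 0.0873). Of 13 YAP and TEAD genes above the median, 6 were opposed (46.2%, beside 32.7% of all features above it), all up in WM983B. Of these 4 were called, beside 4.39% of all features above the median that were opposed, called and up in WM983B, and 2 to 5 with 1 array left out.

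Of 21 measured pigment cell and melanosome genes, 13 fell and 1 rose in WM983B (11.6% and 10.9% of all features) and 6 fell and 2 rose in SK-Mel5 (8.8% and 7.57%). The difference was called lower in WM983B for 9 and higher for 0, beside 4.46% and 5% of all features. MITF measured 8.92 and 8.85 with scrambled shRNA and 7.37 and 6.98 with shp300 in WM983B, and 7.33 and 7.43 against 7.14 and 7.12 in SK-Mel5. It fell in WM983B by 1.71 ± 0.14 (adjusted p = 0.000173), its SK-Mel5 change was -0.25 ± 0.14 (adjusted p = 0.31), and the difference of -1.46 ± 0.20 (adjusted p = 0.0057) was called although MITF was not opposed. OCA2, a transporter of the melanosome membrane, measured 8.61 and 8.74 with scrambled shRNA and 6.16 and 6.19 with shp300 in WM983B, and 9.20 and 9.21 against 9.46 and 9.54 in SK-Mel5. The WM983B pairs lay far apart, and in SK-Mel5 both shp300 arrays were slightly higher. OCA2 fell by 2.50 ± 0.11 (adjusted p = 1.79e-05), its SK-Mel5 change was 0.29 ± 0.11 (adjusted p = 0.109), and the difference was -2.80 ± 0.15 (adjusted p = 0.000304). MLPH, melanophilin, which links melanosomes to myosin, fell by 0.78 ± 0.16 (adjusted p = 0.0113) in WM983B beside 0.44 ± 0.16 (adjusted p = 0.117) in SK-Mel5. MLPH lost its WM983B call without WM983B scrambled 2 or shp300 2 (adjusted p from 0.0697 to 0.0807) and its difference call without WM983B scrambled 2 or shp300 2 or SK-Mel5 scrambled 2 (adjusted p from 0.0652 to 0.066). TBC1D16, a MITF target, fell by 1.32 ± 0.11 (adjusted p = 0.000151) with 0.13 in SK-Mel5, and CAPN3, a calpain, fell by 0.95 ± 0.10 (adjusted p = 0.000562) with 0.02. Both were named as opposed genes. Of the 18 measured genes of their list, other MITF targets, 14 fell and 0 rose in WM983B (11.6% and 10.9% of all features). In SK-Mel5, 9 of the 18 fell and 2 rose (8.8% and 7.57%). The difference was called lower in WM983B for 4 and higher for 3. Of the 16 above the median, 4 were opposed (25%, below 32.7%). Of 20 pigment and melanosome genes above the median 9 were opposed (45%, beside 32.7%), 8 of them up in SK-Mel5, and 2 were called, a share near the 9.2% of all features above the median. None of the pigment or other MITF target genes was called in both lines in opposite directions, beside 1.61% of all features above the median.

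Of 18 BCL2 family and apoptosis genes above the median, 5 were opposed (27.8%, below the 32.7% of all features above it). Of these 3 were called, beside 9.2% of all features above the median, 2 up in WM983B and 1 up in SK-Mel5. PMAIP1, the BH3-only protein NOXA, measured 6.84 and 6.63 with scrambled shRNA and 7.90 and 8.09 with shp300 in WM983B, and 4.76 and 4.20 against 3.67 and 2.91 in SK-Mel5. It rose by 1.25 ± 0.27 (adjusted p = 0.0119) and fell by 1.19 ± 0.27 (adjusted p = 0.0194). PMAIP1 lost its WM983B call without WM983B scrambled 2 or shp300 2 (adjusted p from 0.075 to 0.0828) and its SK-Mel5 call without SK-Mel5 scrambled 1 or shp300 2 (adjusted p from 0.0806 to 0.119). BAX, a pore-forming effector, measured 6.63 and 6.95 with scrambled shRNA and 6.20 and 6.30 with shp300 in WM983B, and 7.66 and 7.53 against 8.27 and 8.18 in SK-Mel5. It ran the other way without overlap, falling by 0.54 ± 0.14 (adjusted p = 0.0234) and rising by 0.63 ± 0.14 (adjusted p = 0.0163). BAX lost its WM983B call without WM983B scrambled 2 or shp300 1 or 2 (adjusted p from 0.0676 to 0.144) and its SK-Mel5 call without SK-Mel5 scrambled 1 or 2 or shp300 1 (adjusted p from 0.0541 to 0.0985). GADD45B, a stress-induced regulator of kinases, rose by 0.52 ± 0.10 (adjusted p = 0.00795) and fell by 0.59 ± 0.10 (adjusted p = 0.00655). GADD45B lost its WM983B call without WM983B scrambled 1 (adjusted p = 0.0594). MDM2, the ubiquitin ligase of p53, rose by 0.68 ± 0.11 (adjusted p = 0.00407) in SK-Mel5 beside -0.27 ± 0.11 (adjusted p = 0.121) in WM983B, a difference of -0.94 ± 0.15 (adjusted p = 0.00901). Of 20 genes of the p53 target and CDK inhibitor list above the median, 6 were opposed (30%, near the 32.7% of all features above it) and 4 called (9.2% of all features above it), 1 up in WM983B and 3 up in SK-Mel5. Most called changes of this list were rises in both lines. Of its 22 measured genes, 12 rose and 2 fell in WM983B (10.9% and 11.6% of all features). In SK-Mel5 12 rose and 2 fell as well (7.57% and 8.8%).

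Of 17 redox genes above the median, 6 were opposed (35.3%, near the 32.7% of all features above it), 3 in each orientation. Of these, 2 were called in the difference, HMOX1 and MT2A, beside 9.2% of all features above the median. HMOX1, heme oxygenase, measured 7.50 and 7.67 with scrambled shRNA and 6.96 and 7.02 with shp300 in WM983B, and 8.14 and 8.41 against 9.29 and 9.23 in SK-Mel5. It fell by 0.60 ± 0.13 (adjusted p = 0.0128) and rose by 0.99 ± 0.13 (adjusted p = 0.00182). HMOX1 lost its WM983B call without WM983B scrambled 2 or shp300 1 or 2 (adjusted p from 0.0501 to 0.0915). MT2A, a metallothionein with close paralogs from which its signal was not told apart here, measured 12.05 and 11.99 with scrambled shRNA and 12.51 and 12.59 with shp300 in WM983B, and 7.80 and 7.67 against 7.05 and 6.97 in SK-Mel5. It rose by 0.53 ± 0.11 (adjusted p = 0.0101) and fell by 0.72 ± 0.11 (adjusted p = 0.00355), so that these 2 stress genes ran against each other in both lines. MT2A lost its WM983B call without WM983B scrambled 2 or shp300 2 (adjusted p from 0.0563 to 0.0673).

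Glycolysis and hypoxia genes fell more often than they rose in both lines. Of the 28 measured, 5 rose and 9 fell in WM983B (10.9% and 11.6% of all features). In SK-Mel5 2 rose and 14 fell (7.57% and 8.8%). Of the 26 above the median 7 were opposed (26.9%, below the 32.7% of all features above it). Of these 5 were called, beside 9.2% of all features above the median, 4 of them up in WM983B, and 3 to 4 were called with 1 array left out. NDRG1, a hypoxia-induced gene, rose by 1.54 ± 0.15 (adjusted p = 0.000354) in WM983B, and its SK-Mel5 change was -0.37 ± 0.15 (adjusted p = 0.157). PFKFB3, which makes an activator of glycolysis, had a difference of 1.12 (adjusted p = 0.033), and PFKL, a phosphofructokinase, ran the other way with -0.83 (adjusted p = 0.0161). PFKFB3 lost its difference call without any 1 of the 4 WM983B arrays or SK-Mel5 scrambled 2 or shp300 1 or 2 (adjusted p from 0.0508 to 0.118). PFKL lost its difference call without WM983B scrambled 2 or shp300 2 or SK-Mel5 scrambled 1 (adjusted p from 0.0555 to 0.072). Of lysosomal genes, CTSL, the protease cathepsin L, measured 9.47 and 9.42 with scrambled shRNA and 10.19 and 10.28 with shp300 in WM983B, and 10.42 and 10.56 against 9.20 and 9.15 in SK-Mel5. It rose by 0.79 ± 0.11 (adjusted p = 0.00159) and fell by 1.32 ± 0.11 (adjusted p = 0.000232), without overlap and with both calls kept without each array in turn. GLA, alpha-galactosidase A, fell by 1.49 ± 0.10 (adjusted p = 0.000109) in SK-Mel5 and rose by 0.37 ± 0.10 (adjusted p = 0.0319) in WM983B. GLA lost its WM983B call without any 1 of the 4 WM983B arrays or SK-Mel5 scrambled 1 or 2 (adjusted p from 0.053 to 0.147). ATP2B1, a calcium pump of the plasma membrane, fell by 1.54 ± 0.11 (adjusted p = 0.000128) in SK-Mel5, and its WM983B change was 0.23 ± 0.11 (adjusted p = 0.199).

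Genes of ribosome biogenesis, the assembly of ribosomal subunits in the nucleolus, fell more often than they rose in WM983B. All 20 measured MYC and ribosome biogenesis genes of the list lay above the median, 11 were opposed (55%, beside 32.7%), 9 of these with the lower estimate in WM983B, and 5 were called (9.2% of all features above it), 4 of them lower in WM983B. In WM983B 11 of the 20 fell and 0 rose (11.6% and 10.9% of all features), and in SK-Mel5 1 rose and 1 fell (7.57% and 8.8%). BOP1, a factor of large subunit maturation, measured 7.67 and 7.85 with scrambled shRNA and 6.57 and 6.98 with shp300 in WM983B, and 6.66 and 6.60 against 7.15 and 7.39 in SK-Mel5. It fell by 0.99 ± 0.16 (adjusted p = 0.00352) and rose by 0.64 ± 0.16 (adjusted p = 0.0313). BOP1 lost its SK-Mel5 call without WM983B scrambled 1 or 2 or SK-Mel5 scrambled 1 or 2 or shp300 2 (adjusted p from 0.0521 to 0.146). NCL, nucleolin, had a difference of -0.72 (adjusted p = 0.0341), and FBL, fibrillarin, of -0.77 (adjusted p = 0.0217). NCL lost its WM983B call without WM983B scrambled 1 or 2 or shp300 1 (adjusted p from 0.0751 to 0.124) and its difference call without any 1 of the 4 WM983B arrays or any 1 of the 4 SK-Mel5 arrays (adjusted p from 0.0506 to 0.12). FBL lost its difference call without WM983B scrambled 2 or shp300 1 or 2 or SK-Mel5 scrambled 1 or 2 or shp300 2 (adjusted p from 0.0567 to 0.0868). ODC1, the polyamine enzyme, ran the other way with a difference of 0.95 ± 0.19 (adjusted p = 0.021). ODC1 lost its difference call without WM983B scrambled 1 or 2 or shp300 2 or SK-Mel5 scrambled 1 or shp300 1 (adjusted p from 0.0548 to 0.0817). The count of 5 was lower whichever array was left out, and each such fit leaves a group of 1 array. With the replicate numbers as a block in the fit of all 8 arrays, 1 opposed member was called, lower in WM983B. Of 14 ribosomal protein genes above the median 7 were opposed (50%, beside 32.7%), all up in SK-Mel5, and 1 was called, RPS23 with a difference of -1.04 (adjusted p = 0.0319). RPS23 lost its SK-Mel5 call without SK-Mel5 scrambled 1 or shp300 2 (adjusted p from 0.096 to 0.123) and its difference call without any 1 of the 4 WM983B arrays or SK-Mel5 scrambled 1 or shp300 2 (adjusted p from 0.0734 to 0.112).

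Among chromatin genes, KAT2A and KAT2B, the acetyltransferases GCN5 and PCAF, were the opposed and called members of 17 measured acetyltransferase and bromodomain genes, beside 9.2% of all features above the median. KAT2A fell by 0.49 ± 0.11 (adjusted p = 0.0138) and rose by 0.43 ± 0.11 (adjusted p = 0.0288). KAT2A lost its WM983B call without WM983B scrambled 1 or 2 or shp300 1 (adjusted p from 0.0601 to 0.0818) and its SK-Mel5 call without WM983B scrambled 1 or 2 or any 1 of the 4 SK-Mel5 arrays (adjusted p from 0.0522 to 0.13). KAT2B rose by 0.90 ± 0.11 (adjusted p = 0.00138) in SK-Mel5, and its WM983B arrays overlapped, with a change of -0.05. SIRT2, a deacetylase, rose by 0.79 ± 0.11 (adjusted p = 0.0026) in SK-Mel5 with -0.25 in WM983B, a difference of -1.04 ± 0.16 (adjusted p = 0.0077). DYNLRB1, a light chain of dynein, measured 11.28 and 11.29 with scrambled shRNA and 11.32 and 11.21 with shp300 in WM983B, and 7.08 and 7.04 against 9.45 and 9.42 in SK-Mel5. It rose by 2.38 ± 0.10 (adjusted p = 4.45e-05) in SK-Mel5, while the WM983B arrays overlapped with a change of -0.02, an estimate that turned positive under quantile normalization and cyclic loess.

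Proliferation genes were outside the opposed set. None of the 21 S phase genes, 25 mitosis genes or 13 DNA repair genes above the median was opposed, beside 32.7% of all features above it. In WM983B 25 of 25 measured S phase genes fell, and in SK-Mel5 24 did, beside 11.6% and 8.8% of all features. Of the 26 mitosis genes measured, 25 fell in each line. FOXM1, the factor of mitotic genes, measured 7.77 and 7.88 with scrambled shRNA and 5.83 and 5.98 with shp300 in WM983B, and 6.19 and 6.35 against 4.35 and 4.29 in SK-Mel5. It fell by 1.92 and by 1.95, and the difference was 0.03 ± 0.17 (adjusted p = 0.949), or -0.10 under quantile normalization, with a 95% interval of -0.36 to 0.41. The difference was still called for 8 S phase genes, all lower in WM983B, and for 10 mitosis genes, 9 of them higher in WM983B, beside 4.46% lower and 5% higher over all features.

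**Figure D4:**
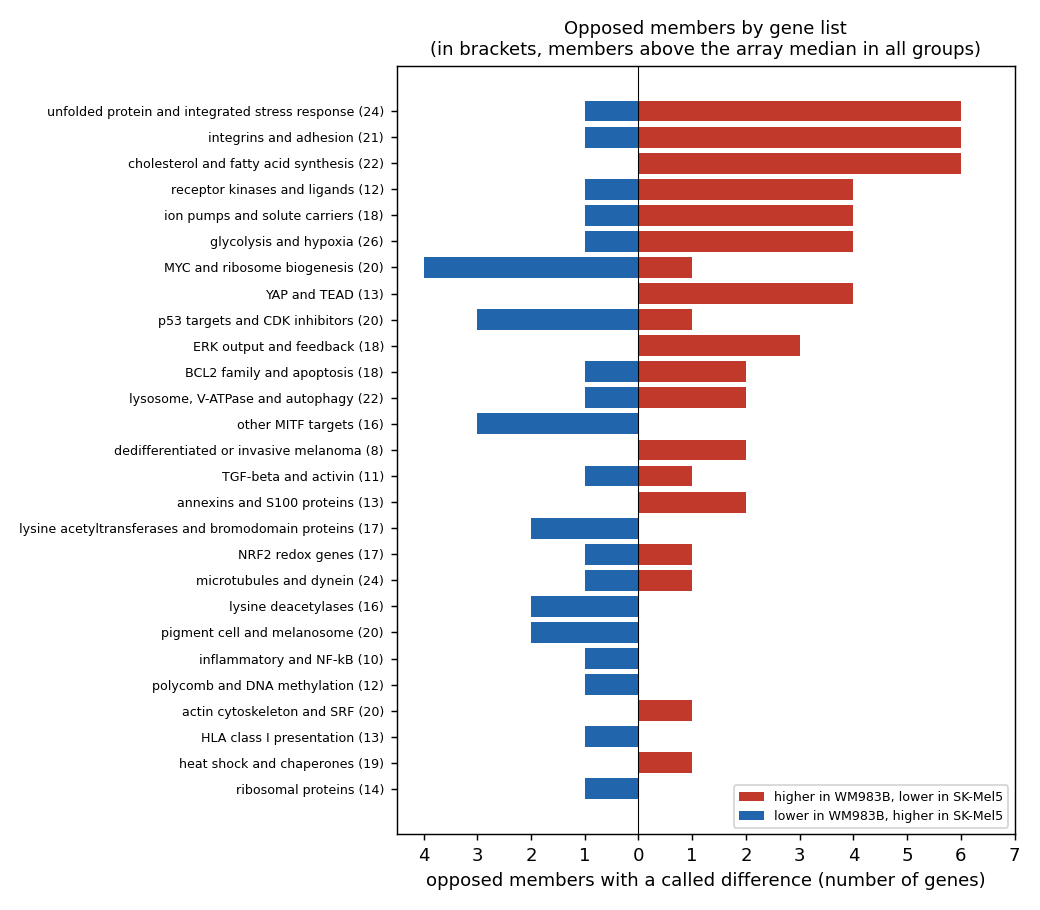
Number of opposed genes with a called difference in each gene list that holds at least 1, to the right for genes that run up in WM983B and down in SK-Mel5 and to the left for the reverse, with the number of members above the median in brackets. The sterol and YAP lists hold genes to the right only, the MYC list holds 4 of 5 to the left, and the S phase, mitosis and repair lists are absent.

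By kind of gene, 153 of the 167 features called in opposite directions were protein coding (91.6%), beside 89.1% of all features above the median. They included 2 snoRNAs, SNORD91B and SNORD50A, which both rose in WM983B and fell in SK-Mel5. SNORD91B changed by 0.59 and -1.32, and SNORD50A by 0.74 and -0.88. SnoRNAs lie within host genes, so signal of the host transcript was not told apart from theirs. SNORD91B lost its WM983B call without WM983B scrambled 1 or 2 or shp300 1 or SK-Mel5 scrambled 1 or 2 (adjusted p from 0.0508 to 0.155). SNORD50A lost its WM983B call without WM983B scrambled 1 or 2 or shp300 1 (adjusted p from 0.0593 to 0.083). The 38 pathway lists held 27 of the 167 (16.2%), beside 617 of the features above the median (5.97%). The lists were chosen with earlier results of these data known, so the higher share may follow from that choice.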

How the data were processed

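RNA of 8 samples was hybridised to Affymetrix Human Gene 2.0 ST arrays. The deposited values are log2 expression values, which the authors made by RMA with affy 1.36.1 in R 2.15.1, per the submitters' processing notes. RMA corrects background, makes arrays share 1 distribution and summarises probes, so changes shared by all genes are removed. Medians differ between lines, which were apparently normalized separately. Which probes make up a feature is not stated in the labels or files used here. Of 23786 features, 22458 matched 1 symbol, 0 several and 1328 none.

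limma 3.58.1 in R 4.3.3 fitted the 4 groups of 2 arrays (lmFit, eBayes, default settings) on the deposited log2 values. The change (shp300 minus scrambled) was taken within each line, and the difference as the WM983B change minus the SK-Mel5 change. Tests were two-sided, with Benjamini-Hochberg adjustment over all features and a threshold of 0.05. "Rose" and "fell" refer to called features, and a call is lost where the adjusted p is 0.05 or more. The fit was tested on simulated data.

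The members and the 44 gene lists (38 pathways, 6 cell types) were chosen with earlier results of these data known. Named genes were EP300, CREBBP, MITF and FOXM1, the 12 largest differences per orientation among opposed features called in both lines, and up to 3 opposed members per list with at least 3 called. A further 17 genes, which complete counts or single out kinds of gene, and the genes at the edges and in the group of 25 were chosen after their values were seen. Promoters are RefSeq's (GRCh38.p14), matched for 68 of 85 and 65 of 82 features. The alternatives comprised the replicate block, other normalizations, filters, thresholds, eBayes settings, array weights and leaving out each array. Every deposited column was used (0 left out).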

Additional observations from a re-analysis of the deposited data

Results flagged for a closer look

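The shp300 change differed between the lines by the test of the difference itself (limma, adjusted p under 0.05) for 86 of the 90 genes named. Most of these genes were named for a called difference, so that count follows from the choice. These differences, WM983B minus SK-Mel5 on the log2 scale, call for a closer look. Groups of 2 arrays were too small to test for single arrays far from the rest. EP300 itself differed by 0.95 and MITF by -1.46.

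Among surface and secreted proteins and transporters, the differences were 3.55 for NT5E, 3.29 for MCAM, 3.35 for CDH19, 2.90 for A2M, 2.78 for SERPINA3, 2.59 for SLC20A1, 2.36 for SEMA7A, 2.35 for SEL1L3, 2.20 for TSPAN13, 1.83 for CD82, 1.77 for ATP2B1 and 1.41 for ALCAM. In the reverse direction they were -2.43 for CLDN1, -2.09 for TMEM229B, -2.02 for SPOCK1, -1.79 for SLC5A4, -1.75 for CPN1, -1.67 for both AHNAK2 and SLC19A1, and -1.64 for TNFRSF14.

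For receptors, ligands and signalling genes the values were 2.74 for FGFR1, 2.49 for SEMA3C, 1.64 for VEGFA, 0.70 for INSR, -0.71 for EPHB4, 1.66 for CCND1, 1.43 for DUSP6, 0.81 for ETV1, 2.76 for CCN2, 1.15 for YAP1 and AMOTL1, 0.83 for LATS1, 1.01 for BMPR2, -1.96 for ID3 and -0.87 for TNFAIP3. For chromatin and gene regulators they were 2.25 for BCL6, -1.89 for BCL7A, -0.92 for KAT2A, -0.95 for KAT2B and -1.04 for SIRT2, and for the kinase CILK1 -1.79.

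For lipid synthesis the values were 2.20 for HMGCS1, 2.09 for MSMO1, 1.53 for INSIG1, 1.50 for ELOVL6, 1.32 for SQLE and 0.96 for DHCR7. For energy metabolism they were 1.92 for NDRG1, 1.49 for PFKFB4, 1.12 for PFKFB3, -0.83 for PFKL and, for the hydrolase NUDT19, -1.71. For lysosomes they were 2.11 for CTSL, 1.86 for GLA and -0.71 for ATP6V0D1. Stress genes gave 2.64 for CHAC1, 1.45 for DNAJB9, 1.15 for DDIT3 and DNAJB4, 1.25 for MT2A and -1.58 for HMOX1.

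Pigment cell and MITF target genes gave -2.80 for OCA2, -1.45 for TBC1D16, -1.22 for MLPH, -1.05 for ST3GAL6 and -0.97 for CAPN3. Death and growth arrest genes gave 2.45 for PMAIP1, 1.11 for GADD45B, 0.62 for BAK1, -0.94 for MDM2 and -1.18 for BAX. Genes of ribosomes and growth gave -1.62 for BOP1, -0.77 for FBL, -0.73 for SRM, -0.72 for NCL, -1.04 for RPS23 and 0.95 for ODC1. The remaining genes were DYNLRB1 (-2.39), MAP1B (1.65), ANXA2 (1.53), CNN2 (0.85), S100A16 (0.75), SNORD91B (1.91) and SNORD50A (1.63).

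Without at least 1 of the 8 arrays, 22 of the 86 differences lost their call, with adjusted p from 0.0503 to 0.148. Beside those given with the genes above, they were ATP6V0D1, BAK1, CNN2, ETV1, LATS1, S100A16, SRM, ST3GAL6 and TNFAIP3. ATP6V0D1 lost its difference call without WM983B scrambled 1 or 2 or shp300 2 or any 1 of the 4 SK-Mel5 arrays (adjusted p from 0.0571 to 0.0966). BAK1 lost its difference call without any 1 of the 4 WM983B arrays or any 1 of the 4 SK-Mel5 arrays (adjusted p from 0.0746 to 0.148). CNN2 lost its difference call without any 1 of the 4 WM983B arrays or SK-Mel5 scrambled 1 or 2 or shp300 1 (adjusted p from 0.0541 to 0.108). ETV1 lost its difference call without WM983B scrambled 1 or 2 or shp300 1 or SK-Mel5 scrambled 1 or 2 (adjusted p from 0.0517 to 0.0737). LATS1 lost its difference call without WM983B scrambled 1 or 2 or shp300 2 or SK-Mel5 scrambled 1 or 2 or shp300 2 (adjusted p from 0.0517 to 0.0679). S100A16 lost its difference call without any 1 of the 4 WM983B arrays or any 1 of the 4 SK-Mel5 arrays (adjusted p from 0.0505 to 0.125). SRM lost its difference call without any 1 of the 4 WM983B arrays or SK-Mel5 scrambled 1 or 2 or shp300 1 (adjusted p from 0.0536 to 0.0804). ST3GAL6 lost its difference call without WM983B scrambled 1 or 2 or shp300 2 or SK-Mel5 scrambled 1 or 2 or shp300 2 (adjusted p from 0.0968 to 0.127). TNFAIP3 lost its difference call without WM983B scrambled 2 or SK-Mel5 scrambled 1 or 2 (adjusted p from 0.0503 to 0.0639).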

How the results depend on the processing

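Of the 86 called differences of named genes, all kept their call under array weights, trend and robust eBayes, and dim features left out, while 13 lost it with the replicate block, 3 with quantile normalization, 1 with cyclic loess and 1 with arrays centred on their medians. The labels do not say whether same-numbered scrambled and shp300 arrays are pairs. Over all features such arrays deviated together with r = 0.003 in WM983B and 0.028 in SK-Mel5. A correlation over all features cannot settle whether they are pairs. With the replicate block the difference was called for 1351 features, 555 opposed features were called in it and 104 in both lines. With dim features left out, 1472 opposed features were called in the difference and 346 in both lines, and why these counts were higher was not tested. eBayes with trend and robust called 323 in both lines, and an adjusted p under 0.1 gave 3404 differences and 275 features in both lines. A minimum of 1.5-fold left 59 in both lines. Above the 75th percentile in all groups 1393 features were opposed, 422 were called in the difference, 66 in both lines and 705 did not overlap. Fitted on its own arrays, SK-Mel5 had 2050 calls and 70 features were opposed in both lines. With each array left out in turn, 885 to 1784 differences, 350 to 765 opposed differences and 56 to 129 features in both lines were called, with 3146 to 5398 calls in WM983B, 2143 to 3648 in SK-Mel5, 3366 to 3521 opposed features and 1703 to 2010 without overlap. Estimates that were not called, most of them near 0, changed sign for AMOTL1 (SK-Mel5 change -0.18 to 0.083 without 1 array), BAK1 (SK-Mel5 change 0.0019 with centred arrays, 0.049 with quantile normalization, -0.041 to 0.012 without 1 array), CAPN3 (SK-Mel5 change -0.00058 to 0.032 without 1 array), DDIT3 (SK-Mel5 change -0.23 to 0.051 without 1 array), DNAJB9 (SK-Mel5 change -0.080 to 0.012 without 1 array), DYNLRB1 (WM983B change 0.0027 with quantile normalization, 0.018 with cyclic loess, -0.069 to 0.033 without 1 array), EP300 (WM983B change -0.24 to 0.10 without 1 array), FOXM1 (difference -0.10 with quantile normalization, -0.054 to 0.11 without 1 array), S100A16 (SK-Mel5 change -0.17 to 0.046 without 1 array), SREBF1 (WM983B change -0.0037 with centred arrays, -0.056 to 0.061 without 1 array) and SREBF2 (SK-Mel5 change -0.20 to 0.011 without 1 array). Across scalings the median difference of all features ran from -0.015 to 0.0072, and where no cause is given the cause was not tested. The number of arrays limits the precision.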
